A study of Mus musculus with 7 samples.

Results

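Oligodendrocytes are the glial cells that wrap axons of the brain in myelin. A set of 40 genes of this lineage, named from textbook markers of its stages and of its membrane, was followed in bulk RNA of cortex and hippocampus from FAD mice, a model of Alzheimer's disease, and from WT mice. The 40 genes were chosen by name out of the 20859 genes listed in the deposited counts, and all 40 were present. The choice was made with earlier results of these data known, so counts over the set are not an independent test. The groups were FAD mice given the agent labelled CD38 (FAD CD38, 7 mice per region), FAD mice given IgG (FAD IgG, 7 mice per region) and WT mice given PBS (WT PBS, 9 cortices and 8 hippocampi). The study's title names CD38, an immunometabolic checkpoint, as its target. Against WT PBS the genotype and the injection differ together, because no WT mouse was given IgG and no FAD mouse was given PBS, so their parts cannot be told apart. The FAD transgenes and their promoter, the strain, the sex and age of the mice and the dose of the CD38 agent were not given in the sources used here. RNA of each region and mouse was tagged at its 3′ end in its own well (mcSCRB-seq, a plate method for bulk or single-cell RNA), and wells were sequenced in 7 pools.

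Myelin is a stack of membrane held together by proteins such as Mbp, which zips its inner faces, and Cldn11, which forms the radial tight junctions between its layers. Precursors marked by Pdgfra and Cspg4 divide throughout life, pass through a short committed stage marked by Gpr17, Bcas1 and Enpp6, and then switch on the membrane programme under Sox10, Olig2, Nkx6-2 and Myrf. Mature cells also make galactolipids, store iron and carry the transferrin transcript Trf at high levels. In amyloid and other disease models some of these cells take up a further state with Serpina3n and C4b.

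In bulk tissue fewer cells of a type and less RNA per cell cannot be told apart, and this holds for every level below. Levels are given as CPM, a well's counts of a gene scaled to 1000000 counts in all, and total counts ran from 1270918 to 5101368 per well. Both wells of 1 mouse whose labels disagree on the injection were left out, leaving 45 wells of 47. The markers of the lineage were present in every group: the 40 genes together held 0.542% ± 0.118 of counts in FAD CD38 cortex, 0.604% ± 0.0723 in FAD IgG cortex and 0.532% ± 0.0522 in WT PBS cortex (SD, n = 7, 7 and 9). In hippocampus they held 0.482% ± 0.0733, 0.565% ± 0.0935 and 0.443% ± 0.0623 in the same order of groups (SD, n = 7, 7 and 8). Of 4 markers of Schwann cells, which make the myelin of peripheral nerve, only Ncmap was listed, at no more than 3.114 CPM in any well. Ribosomal RNA, counted here and below with that of mitochondria, took over 10% of counts in 6 wells. Apart from this, 3 wells held over 1000 CPM of 5 choroid plexus markers together. Of these, FAD CD38 hippocampus replicate 4 stood furthest apart, with 15570 CPM of choroid plexus markers and the lowest share of the 40 genes, 0.3196%.

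The first comparison, FAD IgG against WT PBS, shows how the lineage stood in the model without the CD38 agent. Of 39 genes tested in cortex 3 were higher in FAD IgG, Cldn11, Nkx6-2 and Gsn, and none was lower (edgeR quasi-likelihood test, Benjamini-Hochberg adjusted p under 0.05 over all 12968 genes tested). Of all genes tested in cortex, 3.34% were called higher and 0.532% lower (3.87% in either direction). In hippocampus 4 of 39 were higher, Cldn11, Gsn, Trf and Enpp6, and none was lower, where 4.48% of 12728 genes were called higher and 0.416% lower (4.89% in either direction). These counts are small, and they describe single genes rather than the set. Plekhh1, a pleckstrin-homology protein, had too few counts to be tested within a region, between 0.4819 and 10.7 CPM per well. The median log2 fold change of the members tested was 0.10 in cortex and 0.31 in hippocampus, against 0.01 and 0.00 for all genes tested.

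**Figure D1:**
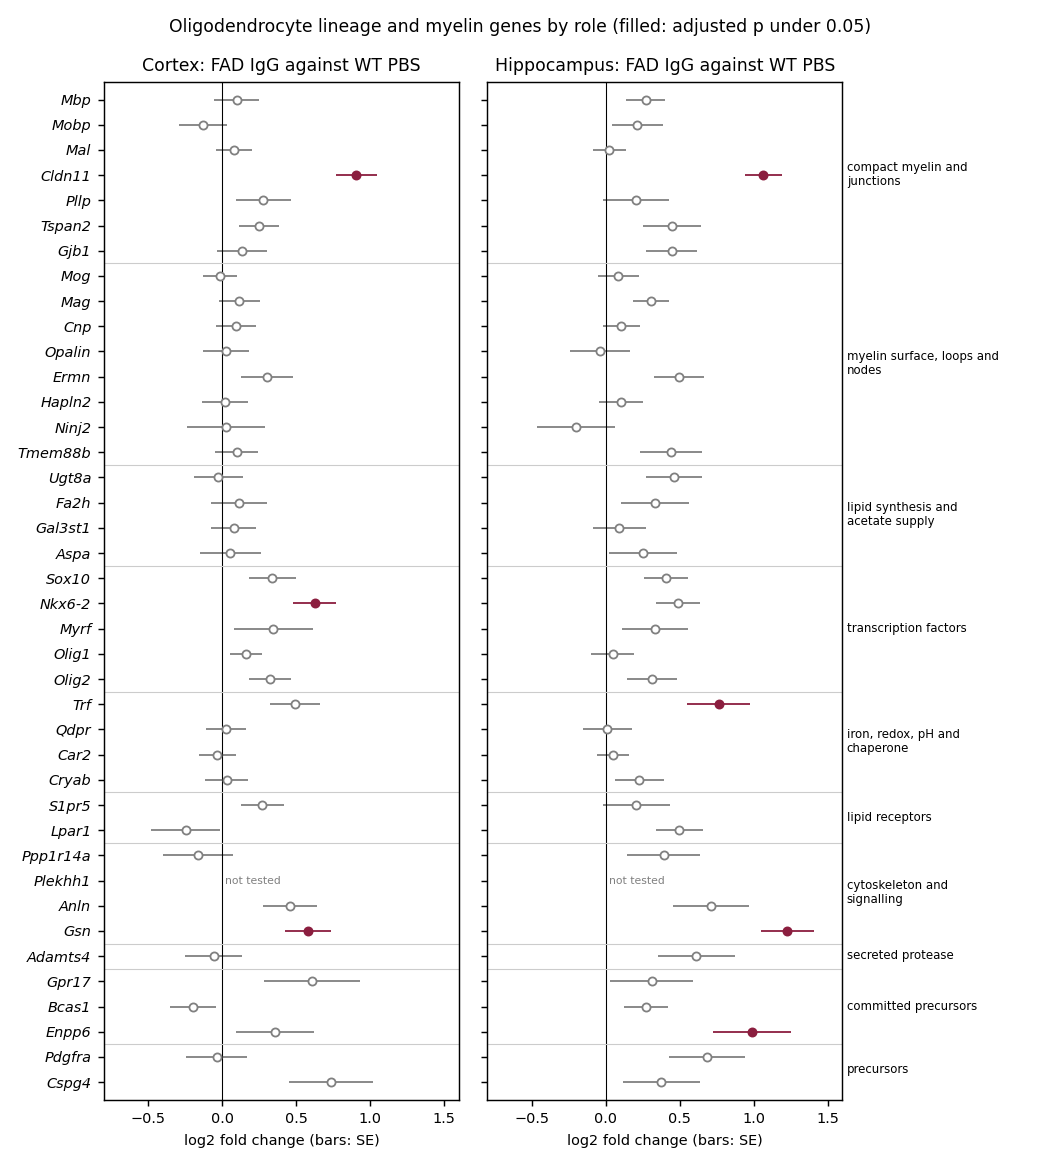
Log2 fold change of FAD IgG against WT PBS (horizontal axis, bars are SE) for each member tested, grouped by role, in cortex and in hippocampus; filled points passed an adjusted p of 0.05. In hippocampus 37 of 39 genes lie right of 0 and in cortex 30 of 39, with Cldn11 far to the right in both regions at 0.91 and 1.07. Members share mice and cells, so these counts carry no test, and the share of all genes right of 0 is not given here.

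Cldn11, the tight junction protein of central myelin, ran from 39.34 to 64.14 CPM with a median of 49.81 in FAD CD38 cortex, from 43.75 to 63.73 with a median of 54.93 in FAD IgG cortex and from 20.73 to 36.15 with a median of 28.65 in WT PBS cortex. Every FAD IgG cortex was above every WT PBS cortex. In hippocampus it ran from 32.9 to 71.36 with a median of 62.08 in FAD CD38, from 52.32 to 73.26 with a median of 62.39 in FAD IgG and from 24.29 to 38.43 with a median of 28.42 in WT PBS. Again the FAD IgG and WT PBS mice did not overlap, and 1 FAD CD38 hippocampus, replicate 4, lay among the WT PBS values. In FAD IgG against WT PBS the log2 fold change was 0.91 ± 0.14 in cortex (edgeR adjusted p = 6.98e-05) and 1.07 ± 0.12 in hippocampus (edgeR adjusted p = 6.27e-06). Compared inside each pool, the FAD IgG wells exceeded the WT PBS wells in 6 of 6 pools with wells of both, in each region, by 0.59 to 1.15 in cortex and by 0.64 to 1.33 in hippocampus on the log2(CPM + 1) scale. The call held in all 18 alternatives of each region.

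Gsn encodes gelsolin, an actin-severing protein that mature oligodendrocytes carry and other brain cells express as well. In hippocampus it ran from 92.41 to 191.7 CPM with a median of 153.3 in FAD CD38, from 117.4 to 228 with a median of 177.1 in FAD IgG and from 32.93 to 85.99 with a median of 71.82 in WT PBS. No WT PBS hippocampus reached a FAD hippocampus, and the log2 fold change of FAD IgG against WT PBS was 1.23 ± 0.18 (edgeR adjusted p = 8.08e-05). In cortex it ran from 78.11 to 168.2 CPM with a median of 130.6 in FAD CD38, from 92.06 to 197.9 with a median of 130.9 in FAD IgG and from 60.13 to 112.5 with a median of 90.51 in WT PBS. The cortical groups overlapped, and the log2 fold change of FAD IgG against WT PBS was 0.58 ± 0.15 (edgeR adjusted p = 0.0297). That cortical call was lost in 6 of 18 alternatives, among them the fits without pool 5, 6, 7, 9 or 11, where the adjusted p reached 0.0902. Markers of microglia moved with it: their 6 genes summed to 469 ± 53.4 CPM in FAD IgG hippocampus and 174 ± 16.7 CPM in WT PBS hippocampus (SD, n = 7 and 8), and their part in the Gsn difference was not tested. The 5 fibroblast markers summed to 74.6 ± 24.2 CPM in FAD IgG hippocampus and 86.6 ± 14.8 CPM in WT PBS hippocampus. The part of fibroblasts in the Gsn levels was not tested either.

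Trf encodes transferrin, the iron carrier that oligodendrocytes make themselves. Hippocampal Trf ran from 438.2 to 608.9 CPM with a median of 560.6 in FAD CD38, from 432.6 to 1031 with a median of 724 in FAD IgG and from 179.9 to 582.6 with a median of 390.7 in WT PBS. The groups overlapped, with 4 of 7 FAD IgG hippocampi above the highest WT PBS one, and the log2 fold change was 0.76 ± 0.21 (edgeR adjusted p = 0.0403). Choroid plexus also makes Trf, and the hippocampi richest in its markers, FAD CD38 replicate 4 and FAD IgG replicate 4, had 438.2 and 493.4 CPM of Trf. The call of Trf in FAD IgG against WT PBS held without these wells; the part of choroid plexus in its levels was not tested. Without pool 5, 6, 7 or 10, or with only the 2 groups in the fit, the call was lost, with an adjusted p of up to 0.180. In cortex Trf had a log2 fold change of 0.49 ± 0.17 that did not pass the test (edgeR adjusted p = 0.128) but did in 4 of 18 alternatives.

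Among the transcription factors all 5 had positive log2 fold changes of FAD IgG against WT PBS in both regions, with medians of 0.34 in cortex and 0.33 in hippocampus, and 1 passed the test. Nkx6-2, a homeodomain factor of myelinating cells, ran from 23.89 to 32.56 CPM with a median of 26.07 in FAD CD38 cortex, from 25.29 to 49.57 with a median of 31.86 in FAD IgG cortex and from 11.7 to 25.97 with a median of 22.08 in WT PBS cortex. All but 2 of 7 FAD IgG cortices were above the highest WT PBS cortex, and the log2 fold change was 0.62 ± 0.14 (edgeR adjusted p = 0.00872). The call was lost without pool 9, without pool 10, and without the wells of high ribosomal RNA share, where the log2 fold change was 0.41 (adjusted p = 0.124). In hippocampus its log2 fold change was 0.49 ± 0.15 (adjusted p = 0.0645), and it was called there in 6 of 18 alternatives, DESeq2 among them. Sox10, which drives the lineage at every stage, averaged 35.6 ± 6.92 CPM in FAD IgG cortex and 27.8 ± 5.64 CPM in WT PBS cortex, with 35.7 ± 6.87 and 27.6 ± 6.78 CPM in FAD IgG and WT PBS hippocampus (SD, n = 7 and 9, then 7 and 8). Its log2 fold changes of 0.34 ± 0.16 and 0.41 ± 0.15 had edgeR adjusted p of 0.301 and 0.153. Olig2, which specifies the lineage, averaged 18.7 ± 5.04 against 15.1 ± 3.06 CPM in cortex and 18.8 ± 4.26 against 14.9 ± 2.22 CPM in hippocampus for FAD IgG against WT PBS. Myrf, the membrane-bound factor that starts myelin gene expression, averaged 6.87 ± 2.46 against 5.17 ± 1.46 CPM in cortex for FAD IgG against WT PBS, and ran from 3.994 to 9.912 CPM in FAD IgG hippocampus and from 5.629 to 9.482 CPM in WT PBS hippocampus. Neither Olig2 nor Myrf passed the test, with edgeR adjusted p between 0.278 and 0.594.

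**Figure D2:**
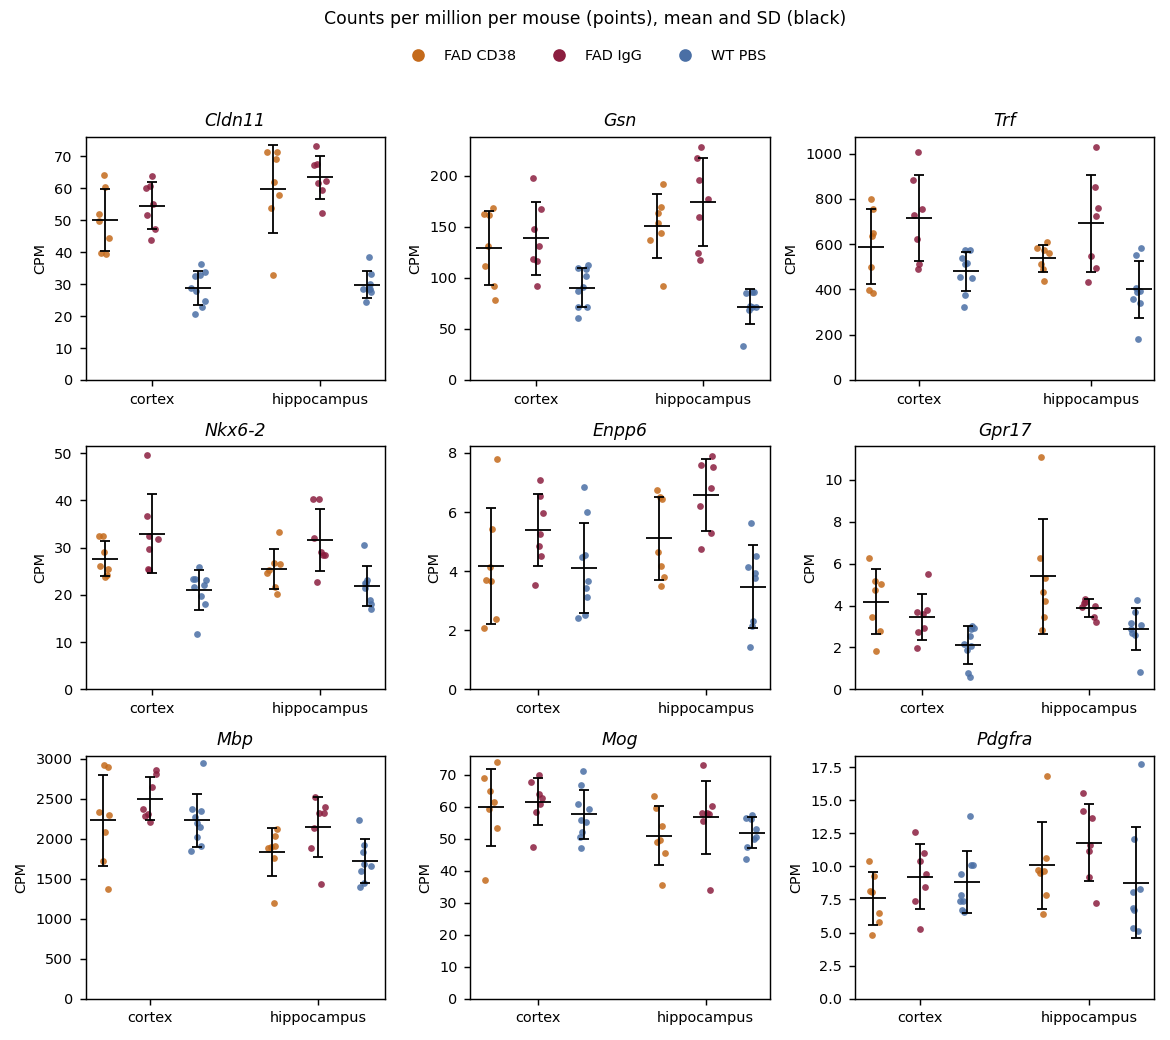
CPM (vertical axis, linear from 0) of 9 members in each mouse of FAD CD38, FAD IgG and WT PBS, in cortex and hippocampus; points are mice and black marks are the mean and SD. For Cldn11 the FAD IgG mice, 43.75 to 63.73 CPM in cortex, lie above the WT PBS mice, 20.73 to 36.15 CPM, while the groups overlap for Mbp, Mog and Pdgfra.

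The other classical proteins of the sheath did not pass the test. Of the 7 genes of compact myelin and its junctions only Cldn11 passed the test in either region, and the other 6 (Mbp, Mobp, Mal, Pllp, Tspan2 and Gjb1) had log2 fold changes of FAD IgG against WT PBS between -0.13 and 0.28 in cortex and between 0.02 and 0.45 in hippocampus. Mbp, which holds the inner membrane faces together, averaged 2496 ± 267 CPM in FAD IgG cortex and 2227 ± 327 CPM in WT PBS cortex, and 2144 ± 374 CPM in FAD IgG hippocampus and 1721 ± 272 CPM in WT PBS hippocampus (SD, n = 7 and 9, then 7 and 8). Its groups overlapped in both regions, and its log2 fold changes were 0.10 ± 0.15 (edgeR adjusted p = 0.821) and 0.27 ± 0.13 (edgeR adjusted p = 0.357).

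None of the 8 genes of the myelin surface, loops and nodes passed the test within a region. Mog, a protein of the outermost membrane, had log2 fold changes of FAD IgG against WT PBS of -0.02 ± 0.12 in cortex (edgeR adjusted p = 0.971) and 0.09 ± 0.14 in hippocampus (edgeR adjusted p = 0.821). Its mean levels were 61.6 ± 7.34 against 57.7 ± 7.76 CPM in cortex and 56.7 ± 11.6 against 51.9 ± 4.86 CPM in hippocampus. Mag, an adhesion protein facing the axon, had log2 fold changes of 0.11 ± 0.14 and 0.30 ± 0.12, with edgeR adjusted p of 0.757 and 0.221. Cnp, an enzyme that keeps cytoplasmic channels of the sheath open, had log2 fold changes of 0.09 ± 0.13 and 0.11 ± 0.13, with edgeR adjusted p of 0.802 and 0.755. These misses do not show that the levels were equal, and the SE sets what could be seen. The 4 genes of galactolipid synthesis and acetate supply (Ugt8a, Fa2h, Gal3st1 and Aspa) had medians of 0.06 in cortex and 0.29 in hippocampus, and none was called. The lipid receptors S1pr5 and Lpar1, the protease Adamts4 and the genes Qdpr, Car2 and Cryab were not called either.

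At the early stages of the lineage the levels were low and the errors wide, except for Bcas1. Its group means ran from 62.5 CPM in WT PBS hippocampus to 80.6 CPM in WT PBS cortex. Enpp6, a choline phosphodiesterase of newly forming oligodendrocytes, ran from 3.5 to 6.746 CPM with a median of 4.646 in FAD CD38 hippocampus, from 4.74 to 7.901 with a median of 6.804 in FAD IgG hippocampus and from 1.431 to 5.624 with a median of 3.841 in WT PBS hippocampus. Among the FAD IgG hippocampi 5 of 7 were above the highest WT PBS one, and the log2 fold change was 0.99 ± 0.26 (edgeR adjusted p = 0.0304). The call was lost in 6 of 18 alternatives, those without pool 5, 6, 9, 10 or 11 and the one without the wells rich in choroid plexus transcripts, with an adjusted p of up to 0.159. In cortex the log2 fold change of Enpp6 was 0.36 ± 0.27 (edgeR adjusted p = 0.579). Gpr17, a receptor of committed precursors, had log2 fold changes of 0.61 ± 0.32 in cortex and 0.31 ± 0.28 in hippocampus, and Bcas1 had -0.20 ± 0.15 and 0.27 ± 0.15; neither passed the test. Pdgfra, the growth factor receptor of precursors, averaged 9.21 ± 2.44 CPM in FAD IgG cortex and 8.81 ± 2.33 CPM in WT PBS cortex, and 11.8 ± 2.91 CPM in FAD IgG hippocampus and 8.78 ± 4.22 CPM in WT PBS hippocampus. It was not called in either region, with edgeR adjusted p of 0.961 and 0.178. Cspg4, the proteoglycan of the same cells, had log2 fold changes of 0.74 ± 0.28 and 0.38 ± 0.26 (adjusted p = 0.183 and 0.56).

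The start-site windows of 3 genes called in FAD IgG against WT PBS (Cldn11, Nkx6-2 and Enpp6) and of 3 myelin genes that were not called (Cnp, Mog and Mal) are printed as examples with and without the motifs searched. Each is the 300 bases from 250 before to 50 after a RefSeq transcript start in GRCm38.p6, on the gene's strand, with matches in capitals to ACAAAG or ACAATG (a SOX-type motif), CTGGCAC or CTGGTAC (a MYRF motif) and CAGCTG (an E-box that OLIG2 can bind), each searched on both strands.
Cldn11, chr3:31149670-31149969, plus strand: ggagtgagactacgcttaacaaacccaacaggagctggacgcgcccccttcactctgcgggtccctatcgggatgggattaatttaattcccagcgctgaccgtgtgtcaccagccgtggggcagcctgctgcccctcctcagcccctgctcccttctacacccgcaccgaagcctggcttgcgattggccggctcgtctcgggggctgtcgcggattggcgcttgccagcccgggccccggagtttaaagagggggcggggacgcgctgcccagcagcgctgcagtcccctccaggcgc
Nkx6-2, chr7:139582748-139583047, minus strand: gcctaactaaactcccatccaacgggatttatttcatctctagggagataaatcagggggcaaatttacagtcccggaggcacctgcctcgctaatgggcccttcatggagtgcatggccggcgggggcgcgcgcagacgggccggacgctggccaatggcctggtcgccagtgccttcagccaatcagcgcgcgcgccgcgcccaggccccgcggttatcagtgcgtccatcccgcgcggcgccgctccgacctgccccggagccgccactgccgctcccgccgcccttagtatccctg
Enpp6, chr8:46986637-46986936, plus strand: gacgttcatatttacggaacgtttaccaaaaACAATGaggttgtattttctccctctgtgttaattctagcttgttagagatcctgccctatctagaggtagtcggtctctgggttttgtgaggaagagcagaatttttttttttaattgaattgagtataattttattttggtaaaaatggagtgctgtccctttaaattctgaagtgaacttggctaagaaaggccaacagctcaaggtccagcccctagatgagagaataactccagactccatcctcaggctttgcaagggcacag
Cnp, chr11:100574689-100574988, plus strand: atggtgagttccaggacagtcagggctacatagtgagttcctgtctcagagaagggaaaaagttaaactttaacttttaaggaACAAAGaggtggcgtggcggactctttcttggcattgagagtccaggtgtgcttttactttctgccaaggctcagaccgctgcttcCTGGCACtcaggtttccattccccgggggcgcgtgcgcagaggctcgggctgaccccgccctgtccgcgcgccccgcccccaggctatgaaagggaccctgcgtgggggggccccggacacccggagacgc
Mog, chr17:37023349-37023648, minus strand: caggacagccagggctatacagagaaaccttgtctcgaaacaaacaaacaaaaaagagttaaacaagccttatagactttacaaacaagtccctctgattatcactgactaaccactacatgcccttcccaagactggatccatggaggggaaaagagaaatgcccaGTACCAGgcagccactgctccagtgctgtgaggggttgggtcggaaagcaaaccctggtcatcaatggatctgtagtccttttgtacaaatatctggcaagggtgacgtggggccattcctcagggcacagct
Mal, chr2:127656646-127656945, minus strand: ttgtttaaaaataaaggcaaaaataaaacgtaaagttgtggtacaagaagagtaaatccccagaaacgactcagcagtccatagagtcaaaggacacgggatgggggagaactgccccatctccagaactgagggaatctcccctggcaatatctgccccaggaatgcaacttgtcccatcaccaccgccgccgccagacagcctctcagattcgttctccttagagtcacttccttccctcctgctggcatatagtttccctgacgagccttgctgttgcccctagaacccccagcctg
The windows of Cldn11, Nkx6-2 and Mal hold none of these letters, at a G and C content of 66.3%, 66.7% and 51%. Enpp6 holds 1 SOX-type match, Cnp a SOX-type and a MYRF match, and Mog a MYRF match. The RefSeq table holds 41 windows for 29 of the 40 genes, several of a gene overlapping. At least 1 of the 3 motifs was in 3 of 6 genes called in FAD IgG against WT PBS (in either region or their mean) and in 15 of 23 genes not called. Trf was called too but has no window. The share of all genes with at least 1 of the motifs is not given here, so these counts show nothing particular to the members. A MYRF match was in 8 of these 41 (19.5%), against 7.1% of 32851 windows of all genes, a SOX-type match in 17 (41.5%, against 28.6%) and an E-box in 6 (14.6%, against 16.3%). A match describes letters only, and its absence says nothing of the factor.

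Both regions of a mouse were then fitted jointly, with the mouse as a correlated block (limma-voom, 13447 genes tested). In the mean of both regions 7 of 40 members were higher in FAD IgG than in WT PBS and none was lower, where 5.63% of all genes tested were called higher and 1.67% lower (7.3% in either direction). Cldn11 had a log2 fold change of 0.96 ± 0.10 (limma adjusted p = 1.03e-10), Gsn 0.89 ± 0.13 (limma adjusted p = 1.1e-06), Trf 0.61 ± 0.14 (limma adjusted p = 0.00225) and Nkx6-2 0.52 ± 0.13 (limma adjusted p = 0.00367). These 4 calls held in all 13 alternatives. Enpp6, at 0.65 ± 0.20 (limma adjusted p = 0.0329), lost its call in 6 of 13 alternatives: without pool 5, 6, 9, 10 or 11 and without the wells of high ribosomal RNA share.

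Anln and Ermn, which passed within neither region in the fits as described, passed with both regions combined; within hippocampus alone Anln was called in 5 of 18 alternatives and Ermn in 1. Anln, the septin- and actin-binding anillin of mature sheaths, ran from 14.65 to 21.19 CPM with a median of 15.98 in FAD IgG hippocampus and from 6.073 to 20.17 with a median of 11.39 in WT PBS hippocampus, and from 10.98 to 24.39 with a median of 13.31 against 8.177 to 14.46 with a median of 10.29 in cortex. Its log2 fold change over both regions was 0.55 ± 0.17 (limma adjusted p = 0.0305), lost without pool 5, 6, 9 or 10. Ermn, a cytoskeletal protein of the outer tongue of myelin, ran from 101.6 to 149.8 CPM with a median of 122.7 in FAD IgG hippocampus and from 46.95 to 100.1 with a median of 93.4 in WT PBS hippocampus, and from 67.63 to 131.6 with a median of 106.1 against 59.4 to 99.85 with a median of 81.75 in cortex. The hippocampal groups of Ermn did not overlap, though within hippocampus it missed the test (edgeR adjusted p = 0.123). Its log2 fold change over both regions was 0.41 ± 0.13 (limma adjusted p = 0.0409), lost without pool 6, 7, 9 or 10 and without the wells of high ribosomal RNA share.

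Whether the difference of FAD IgG from WT PBS was larger in hippocampus than in cortex was tested directly. No member passed, where 0.134% of genes were called larger in hippocampus and 0.0149% smaller, and 6 members had an unadjusted p under 0.05 (limma). Lpar1, a lysophosphatidic acid receptor of mature cells, came closest with a difference of 0.79 ± 0.21 on the log2 scale (limma adjusted p = 0.187), followed by Gsn with 0.69 ± 0.19 (limma adjusted p = 0.205). With sample quality weights both passed.

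FAD CD38 against WT PBS gives the treated mice against the same WT mice, so the counts below are not independent of those above. In cortex 1 of 39 members was higher in FAD CD38 and none lower, where 3.3% of genes were called higher and 1.23% lower (4.53% in either direction). In hippocampus 2 of 39 were higher and none lower, where 4.56% were called higher and 0.754% lower (5.31% in either direction). Cldn11 had log2 fold changes of 0.75 ± 0.13 in cortex (edgeR adjusted p = 0.000545) and 1.01 ± 0.12 in hippocampus (edgeR adjusted p = 7.62e-06), and was higher in FAD CD38 in 7 of 7 pools in each region. Gsn had 1.08 ± 0.17 in hippocampus (edgeR adjusted p = 0.000214) and 0.46 ± 0.15 in cortex (edgeR adjusted p = 0.0769).

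In the mean of both regions 4 of 40 members were higher in FAD CD38 than in WT PBS, where 5.76% of genes were called higher and 2.7% lower (8.46% in either direction). They were Cldn11 at 0.86 ± 0.09 (limma adjusted p = 5.59e-10), Gsn at 0.77 ± 0.12 (limma adjusted p = 6.94e-06), Gpr17 at 0.92 ± 0.22 (limma adjusted p = 0.00285) and Cspg4 at 0.59 ± 0.19 (limma adjusted p = 0.041). Gpr17 ran from 1.814 to 6.254 CPM with a median of 4.739 in FAD CD38 cortex, from 1.971 to 5.508 with a median of 3.602 in FAD IgG cortex and from 0.5716 to 3.031 with a median of 2.183 in WT PBS cortex. In hippocampus it ran from 2.811 to 11.07 with a median of 4.646 in FAD CD38, from 3.195 to 4.309 with a median of 3.973 in FAD IgG and from 0.8264 to 4.274 with a median of 2.969 in WT PBS. The groups overlapped in both regions, and each value rests on 2 to 34 counts. Without pool 6 the adjusted p of Gpr17 was 0.0528. Cspg4 ran from 3.931 to 8.057 CPM with a median of 4.622 in FAD CD38 cortex and from 1.443 to 5.961 with a median of 3.121 in WT PBS cortex, and from 3.213 to 7.001 with a median of 6.185 against 2.413 to 6.707 with a median of 4.324 in hippocampus. These groups overlapped too, and the call of Cspg4 was lost in 8 of 13 alternatives, with an adjusted p of up to 0.157.

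FAD CD38 against FAD IgG is the comparison in which both groups carry FAD and differ by the agent given. No member was called in cortex, in hippocampus or in the mean of both regions, and 0% of all genes tested were called in any of them. In cortex 2 members had an unadjusted p under 0.05 in edgeR (195 of all genes tested), in hippocampus 4 (197 of all genes) and in the mean of both regions 3 in limma (191 of all genes). DESeq2 also called none of the members in either region. The median log2 fold change of the members was -0.15 in cortex with 29 of 39 below 0, -0.16 in hippocampus with 34 of 39 below 0, and -0.14 in the mean of both regions with 35 of 40 below 0, against medians of 0.00 and 0.01 for all genes tested in cortex and hippocampus. Members share mice and cells, so these counts carry no test. In hippocampus the median of the members was -0.06 without the wells rich in choroid plexus transcripts and -0.09 without FAD CD38 replicate 4 alone.

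By role, the 7 genes of compact myelin and its junctions all had negative values in FAD CD38 against FAD IgG in both regions, with medians of -0.16 in cortex and -0.19 in hippocampus, and none was called. Mbp averaged 2230 ± 569 CPM in FAD CD38 cortex and 2496 ± 267 CPM in FAD IgG cortex, and 1828 ± 300 CPM in FAD CD38 hippocampus and 2144 ± 374 CPM in FAD IgG hippocampus (SD, n = 7 each). Its log2 fold changes were -0.16 ± 0.15 in cortex and -0.15 ± 0.13 in hippocampus. Mog was at 0.01 ± 0.12 and -0.09 ± 0.14, Mag at -0.19 ± 0.14 and -0.18 ± 0.12, and Cnp at -0.15 ± 0.14 and -0.16 ± 0.13. Each of these lies within 2 SE of 0. None of the genes that were higher in FAD IgG than in WT PBS passed here, and all had negative values: Cldn11 -0.16 ± 0.14 and -0.06 ± 0.12, Gsn -0.12 ± 0.16 and -0.14 ± 0.18, Trf -0.27 ± 0.18 and -0.28 ± 0.21, and Nkx6-2 -0.24 ± 0.15 and -0.24 ± 0.15 in cortex and hippocampus. Enpp6 was at -0.33 ± 0.28 and -0.34 ± 0.26, Ermn at -0.27 ± 0.18 and -0.20 ± 0.16, and Anln at -0.23 ± 0.19 and -0.05 ± 0.25. Calls against WT PBS select genes that are high in these same FAD IgG wells, which by itself can give negative values here. The shared sign of these genes therefore carries no test of the agent. In the opposite direction Gpr17 was at 0.32 ± 0.31 and 0.57 ± 0.27, and Myrf at 0.25 ± 0.26 and 0.22 ± 0.22.

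**Figure D3:**
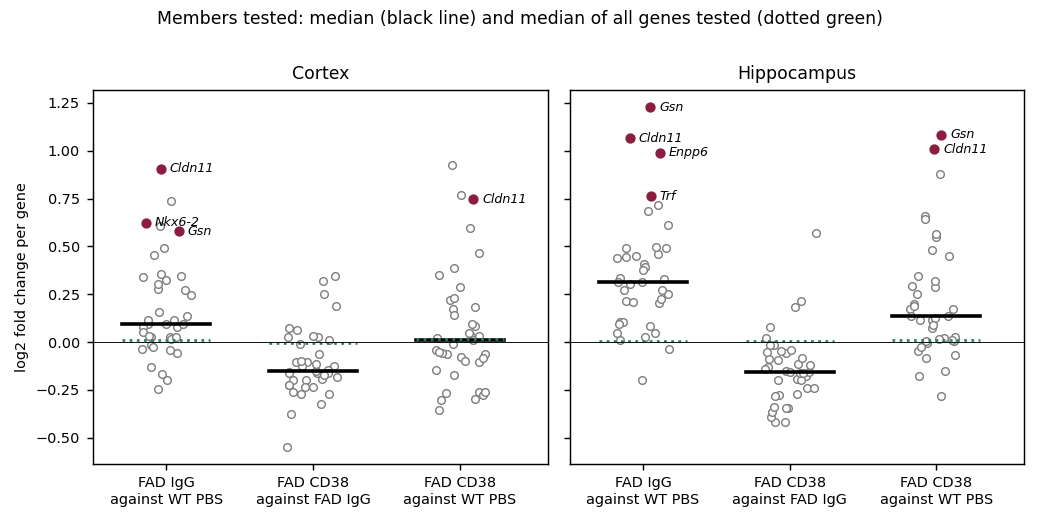
Log2 fold change (vertical axis) of each member tested in FAD IgG against WT PBS, FAD CD38 against FAD IgG and FAD CD38 against WT PBS, in cortex and hippocampus, with the median of the members (black line) and of all genes tested (dotted green). The members' median is 0.31 for FAD IgG against WT PBS in hippocampus and -0.16 for FAD CD38 against FAD IgG there, with single genes on either side of 0. Both comparisons use the same FAD IgG mice.

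The smallest unadjusted p among the members in this comparison belonged to S1pr5, a sphingosine-1-phosphate receptor of mature oligodendrocytes. It ran from 7.395 to 15.12 CPM with a median of 11.64 in FAD CD38 cortex and from 11.96 to 23.6 with a median of 17.22 in FAD IgG cortex, with overlap between the groups. Its log2 fold change was -0.55 ± 0.15 in cortex (edgeR unadjusted p = 0.00167, adjusted p = 0.9999) and -0.20 ± 0.23 in hippocampus. Opalin, a sialylated protein of the paranodal loops, was at -0.38 ± 0.16 in cortex. In hippocampus the members with an unadjusted p under 0.05 were Gjb1, a gap junction protein, at -0.42 ± 0.18, Sox10 at -0.39 ± 0.15, Lpar1 at -0.36 ± 0.16 and Gpr17 at 0.57 ± 0.27. All had an adjusted p of 0.9998. The difference of this comparison between regions was called for no member either, where 0% of all genes were called, with 1 unadjusted p under 0.05, that of Ppp1r14a, a phosphatase inhibitor subunit, at -0.60 ± 0.28 (limma).

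Within a group, some wells stood high or low for nearly all genes of the sheath at once. For the 19 structural and lipid synthesis members the mean deviation from the group mean, on the log2(CPM + 1) scale, was -0.43 in FAD CD38 cortex replicate 2, with 1 of 19 genes above its group's mean, and 0.34 in replicate 6 of the same group, with 19 of 19 above. In hippocampus it was -0.68 in FAD CD38 replicate 4, with 1 of 19 above, and -0.50 in FAD IgG replicate 6, with 0 of 19 above. The WT PBS cortices stayed between -0.21 and 0.13, while WT PBS hippocampi reached -0.32 in replicate 9. Ribosomal RNA, which is part of the total that CPM divides by, took 17.2% of counts in FAD CD38 hippocampus replicate 4. It took 23.7% in WT PBS hippocampus replicate 9, 6.724% in FAD IgG hippocampus replicate 6 and 5.087% in FAD CD38 cortex replicate 2. The part of ribosomal RNA in these deviations was not tested. The spread of single members was close to that of other genes, with a median SD within groups of 0.305 against 0.320 for all genes in cortex and 0.358 against 0.344 in hippocampus.

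**Figure D4:**
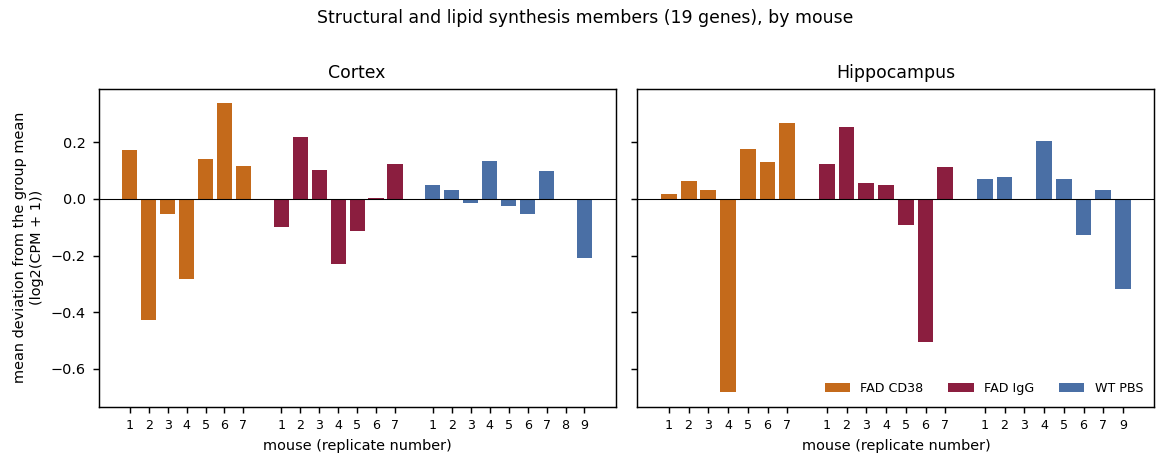
Mean deviation from the group mean (vertical axis, log2(CPM + 1)) of 19 structural and lipid synthesis members in each mouse, by replicate number (horizontal axis), in cortex and hippocampus, for FAD CD38, FAD IgG and WT PBS. FAD CD38 replicate 4 is lowest in hippocampus at -0.68 and FAD CD38 replicate 2 is lowest in cortex at -0.43.

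Hippocampus was compared with cortex of the same 22 mice, with each mouse as its own block (edgeR, 12439 genes tested). These mice were of FAD CD38, FAD IgG and WT PBS together, so the differences are averages over the groups. Of 39 members 4 were higher in hippocampus and 8 lower, where 23.2% of all genes were called higher and 22.1% lower, and the median over members was -0.03. Cryab, a small heat-shock chaperone, averaged 294 ± 67.8 CPM in hippocampus and 370 ± 73.4 CPM in cortex (SD, n = 22 mice) and was lower in hippocampus in 20 of 22 mice, with a log2 difference of -0.35 ± 0.06 (edgeR adjusted p = 2.73e-05). Qdpr, which regenerates tetrahydrobiopterin, averaged 165 ± 36.2 CPM in hippocampus and 199 ± 31.9 CPM in cortex, with a log2 difference of -0.29 ± 0.07 (edgeR adjusted p = 0.00035). Mbp averaged 1890 ± 352 CPM in hippocampus and 2317 ± 411 CPM in cortex and was lower in hippocampus in 17 of 22 mice, with a log2 difference of -0.30 ± 0.08 (edgeR adjusted p = 0.00206). S1pr5, at -0.26 ± 0.10, and Pllp, Gal3st1, Trf and Mog, between -0.24 and -0.18, were lower as well.

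Other genes of the sheath were higher in hippocampus. Tspan2, a tetraspanin of early myelination, averaged 40.1 ± 10.3 CPM in hippocampus and 33.3 ± 6.85 CPM in cortex, with a log2 difference of 0.26 ± 0.07 (edgeR adjusted p = 0.00196), and was higher in hippocampus in 17 of 22 mice. Mag and Ermn were each higher by 0.22 ± 0.07 and Cldn11 by 0.19 ± 0.06 on the log2 scale. Gpr17 had the largest positive difference of the 39 members tested, 0.34 ± 0.15, and with Myrf at 0.24 ± 0.12 and Cspg4 at 0.24 ± 0.14 it did not pass the test (edgeR adjusted p = 0.0552, 0.0901 and 0.152). Plekhh1, left out by the filter, averaged 2.82 CPM in hippocampus and 1.74 CPM in cortex, was higher in hippocampus in 16 of 22 mice, and was called higher when no filter was used. Over the groups together, compact myelin genes thus lay on both sides, with Mbp and Pllp lower and Tspan2 and Cldn11 higher in hippocampus. Without the mouse block 7 of 39 members were called, and Cldn11, Ermn, Trf, Pllp and S1pr5 were those lost. Pllp was also lost without pool 6 or 7 and without the wells of high ribosomal RNA share, S1pr5 without pool 7 or 10, and Gal3st1 without pool 11 and without those wells. Cldn11 was also lost without pool 5 or 6, Trf without pool 6, 8, 10 or 11, Mog without pool 6, 7, 10 or 11, and Ermn and Mag without pool 9.

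**Figure D5:**
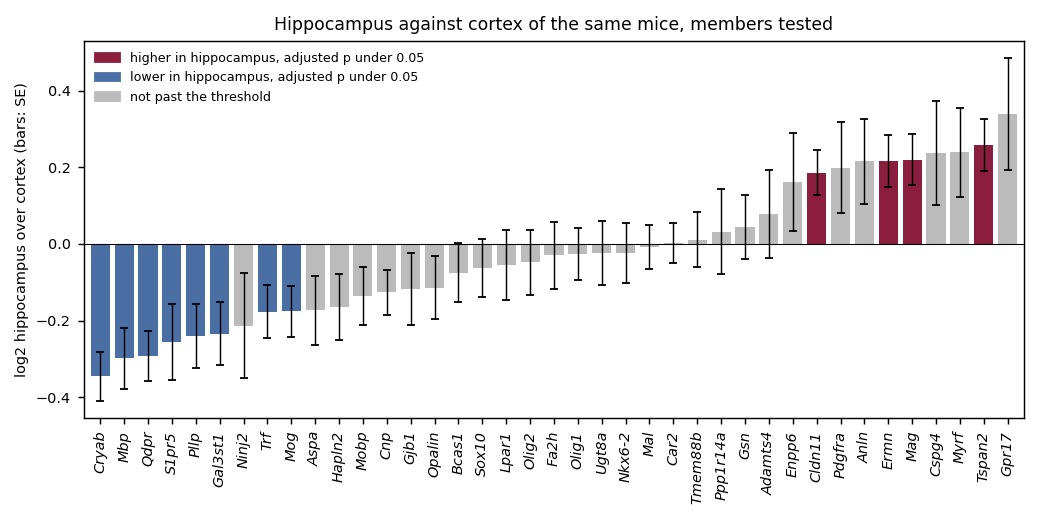
Log2 difference of hippocampus over cortex (vertical axis, bars are SE) for each member tested in 22 mice, with genes ordered by value and called genes filled. Cryab is lowest at -0.35 and Gpr17 highest at 0.34, with 4 genes called higher and 8 called lower.

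Genes that surround this programme were read from lists kept apart from the 40. In FAD IgG against WT PBS, 3.34% of all genes tested were called higher in cortex and 4.48% in hippocampus. Of 24 tested genes known to be induced in oligodendrocytes in disease, 16 were higher in FAD IgG than in WT PBS in cortex (median log2 fold change 1.12) and 17 in hippocampus (median 1.58), and none was lower; many of them are also made by astrocytes or microglia. Serpina3n, a serine protease inhibitor, had log2 fold changes of 3.69 ± 0.25 and 2.40 ± 0.17, and C4b, a complement component, 3.43 ± 0.22 and 2.84 ± 0.21. Klk6, a secreted protease of oligodendrocytes, averaged 19.1 ± 4.83 CPM in FAD CD38 cortex, 25.9 ± 6.28 CPM in FAD IgG cortex and 6.05 ± 1.59 CPM in WT PBS cortex, and 14.4 ± 3.69, 23.0 ± 8.96 and 2.10 ± 0.843 CPM in the same groups of hippocampus (SD, n = 7, 7 and 9, then 7, 7 and 8). No FAD mouse overlapped with WT PBS in either region. Its log2 fold change of FAD IgG against WT PBS was 2.11 ± 0.16 in cortex and 3.45 ± 0.26 in hippocampus, and the difference between regions of 1.45 ± 0.22 passed the test (limma adjusted p = 0.000283). The list was chosen with earlier results of these data known, so this is not an independent test of Klk6. In FAD CD38 against FAD IgG, Klk6 had log2 fold changes of -0.47 ± 0.15 in cortex and -0.64 ± 0.22 in hippocampus that did not pass (edgeR adjusted p = 0.9999 and 0.9998).

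Among 38 further mature oligodendrocyte genes tested, Apod, a lipid-binding apolipoprotein, was the only gene called in FAD IgG against WT PBS, at 0.72 ± 0.13 in cortex (edgeR adjusted p = 0.00041) and 1.08 ± 0.21 in hippocampus (edgeR adjusted p = 0.0022). Of all genes tested, 3.87% were called in either direction in cortex and 4.89% in hippocampus, so 1 call among 38 is near that share. The median over the list was 0.09 in cortex and 0.26 in hippocampus. Of the further committed precursor genes Itpr2, a calcium release channel, and Sema4d, a semaphorin, were higher in both regions, with log2 fold changes of 0.58 and 0.57 in cortex and 0.86 and 0.83 in hippocampus, 2 of 10 and 2 of 9 genes tested. Of 16 further precursor genes, Bcan was lower in cortex at -0.48 ± 0.13 (edgeR adjusted p = 0.0357) and Fabp7 was higher in hippocampus at 0.86 ± 0.23 (edgeR adjusted p = 0.0309). Of 16 further transcription factors, none was called in cortex, where 4 had an unadjusted p under 0.05 in edgeR, and Sox9 was higher in hippocampus at 0.65 ± 0.15. Bulk RNA does not show which cells carried the transcripts of these lists, and the part of cells outside the lineage was not tested.

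Lipid supply showed few calls in FAD IgG against WT PBS, where 3.34% of all genes tested were called higher in cortex and 4.48% in hippocampus. Of 20 genes of sphingolipid and fatty acid synthesis, 2 were higher in each region, Gltp and Acaca in cortex and Gltp and Galc in hippocampus, by 0.54 to 0.59 on the log2 scale. Among the cholesterol synthesis genes Mvk, mevalonate kinase, was higher in cortex at 0.50 ± 0.14 on the log2 scale (edgeR adjusted p = 0.0375), and no gene of either list was lower. Of the signals to the lineage, Igf1, a growth factor that promotes myelination, and Tgfbr2 were higher in both regions, Igf1 by 2.82 ± 0.20 in cortex and 2.70 ± 0.16 in hippocampus. Genes of myelin debris uptake and lipid export were called higher for 11 of 20 in cortex and 12 of 20 in hippocampus, led by Tyrobp, Trem2 and Lgals3, which microglia express. Microglial markers summed to 429 ± 57.4 CPM in FAD IgG cortex and 184 ± 18.5 CPM in WT PBS cortex (SD, n = 7 and 9), with 4 of 6 called in cortex and 5 of 6 in hippocampus; none of the 6 was at 0. Their part in these lists was not tested. In FAD CD38 against FAD IgG no gene of any of these lists was called by edgeR.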

How the data were processed

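The authors deposited 1 table of raw counts (whole numbers, with gene symbols in rows and wells in columns) for cortex and hippocampus, 47 wells of 24 mice in 7 library pools, each pool a deposited sample. Per the submitters' processing notes, the tools bcl2fastq 2.17 and STAR 2.5.3a are named; which genome build and counting program made the counts, and how molecular identifiers were handled, was not given in the sources used here. Because only 3′ ends are tagged, counts do not grow with the length of the transcript. Region, genotype and injection of each well came from the deposited sample sheet. For 1 mouse of pool 8 the sheet and the well name disagree on the injection, and it was left out.

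For each region, edgeR 4.0.16 (under R 4.3.3) was used to fit all 3 groups at once, adding the pool as a factor; TMM scaled the libraries, filterByExpr (at least 10 counts, 15 in total) removed low genes, and the quasi-likelihood test was run in its robust form. limma 3.58.1 (voom, with a consensus correlation of 0.256 for wells of 1 mouse) gave the mean over both regions and their difference, and hippocampus against cortex with edgeR and a mouse block. Tests were two-sided, genes counted as called when their Benjamini-Hochberg adjusted p, over all genes tested, was under 0.05, and ± after a log2 fold change is its SE. CPM is the count divided by the well's total count, scaled to 1000000. The replicate was the mouse, and p-values measure the spread between mice. The common dispersion had a square root of 0.197 (cortex) and 0.23 (hippocampus). The lowest chi-square per degree of freedom between replicate wells was 2.738 over 148 pairs, so all wells were kept as separate samples.

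The 40 members and the other gene lists were chosen with earlier results of these data known. A member was named with its values where it was called between groups, where it stood for a stage or role of the lineage (Mbp, Mog, Mag, Cnp, Sox10, Olig2, Myrf, Gpr17, Enpp6 and Pdgfra), or where it was among the 4 of largest difference between regions in each direction; of other lists up to 4 called genes of smallest adjusted p were named. Some results of the cholesterol list are not reported here. S1pr5, Lpar1, Opalin, Plekhh1, Gjb1 and Ppp1r14a in the comparisons with no call, and Klk6 between FAD CD38 and FAD IgG, were named after their values were seen. Alternatives were DESeq2 1.42.0, RLE factors, other filters, no pool term, only 2 groups in the fit, ribosomal RNA share as a covariate, either label of the mouse left out, and each pool left out in turn. Leaving out wells of over 10% ribosomal RNA, wells of over 1000 CPM of choroid plexus markers, and FAD CD38 hippocampus replicate 4 were chosen after seeing the data. The code was tested on simulated counts.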

Additional observations from a re-analysis of the deposited data

Results flagged for a closer look

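For 17 genes and the summed share of the 40 genes, each group of 7 to 9 mice was examined for a mouse far from the others (108 groups of values). Chance flags about 1 in 20 such groups, and 11 values were flagged. FAD CD38 hippocampus replicate 4, the well richest in choroid plexus transcripts, gave 4 of them: the lowest Mbp at 1202 CPM (the nearest mouse had 1755 CPM), the lowest share of the 40 genes at 0.3196% (nearest 0.4884%), the highest Anln at 30.8 CPM (nearest 18.59 CPM) and the highest Pdgfra at 16.8 CPM (nearest 10.62 CPM). In FAD CD38 hippocampus replicate 1 Gpr17 was highest, at 11.07 CPM, with the nearest mouse at 6.264 CPM.

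The other 6 values were in WT PBS mice. In WT PBS hippocampus Nkx6-2 was highest in replicate 2 at 30.63 CPM (nearest 23.24 CPM), Ermn lowest in replicate 2 at 46.95 CPM (nearest 78.25 CPM), Gsn lowest in replicate 9 at 32.93 CPM (nearest 68.09 CPM) and Myrf highest in replicate 4 at 9.482 CPM (nearest 6.871 CPM). In WT PBS cortex Mbp was highest in replicate 3 at 2948 CPM (nearest 2376 CPM) and Pdgfra highest in replicate 2 at 13.82 CPM (nearest 10.1 CPM).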

How the results depend on the processing

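Among the 17 genes examined above for outlying mice, no call turned its direction in any alternative. FAD CD38 against FAD IgG had 0 members called in all 18 alternatives of cortex and 19 of hippocampus. The same held in 13 alternatives each of the mean of both regions and of the difference between them. Leaving out 1 pool at a time gave 1 to 3 members called for FAD IgG against WT PBS in cortex and 2 to 8 in hippocampus, 4 to 8 in the mean of both regions, and 0 to 1 for the difference between regions. For FAD CD38 against WT PBS it gave 1 to 2 in cortex (without pool 10 the added call was Opalin, lower in FAD CD38), 2 to 4 in hippocampus and 2 to 7 in the mean, and for hippocampus against cortex 9 to 16. With the ribosomal RNA share as a covariate, FAD CD38 against WT PBS had 6 members called in cortex and 5 in hippocampus, and FAD IgG against WT PBS had 9 in hippocampus. Without wells of high ribosomal RNA share, FAD CD38 against WT PBS had 3 in cortex, 5 in hippocampus and 9 in the mean of both regions. In cortex FAD CD38 against WT PBS had 2 called without the pool term, 2 with only these groups in the fit and 2 when the mouse left out for its labels was taken as CD38. With sample quality weights the mean of FAD CD38 against WT PBS had 7 and the difference between regions of FAD IgG against WT PBS had 2. Hippocampus against cortex had 7 without the mouse block. The share of all genes called under each setting is not given here, so these counts do not show a change particular to the members. The cause of these changes was not tested. Genes of few counts, such as Gpr17, Enpp6 and Plekhh1, are limited by depth. No paired analysis by replicate number was possible because the groups share no mice and the numbers only name them; the pool, and between regions the mouse, served as blocks.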

Other observations

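Markers of other cells of the tissue were summed per well. The 6 astrocyte markers summed to between 2630 and 4309 CPM in FAD IgG hippocampus and between 2537 and 4093 CPM in WT PBS hippocampus, with 3 of 6 called higher by edgeR, and 1 of 6 was called in cortex. Over all genes tested, 4.48% were called higher in hippocampus and 3.87% were called in either direction in cortex. The 6 neuron markers summed to 2891 CPM in FAD IgG hippocampus and 3142 CPM in WT PBS hippocampus, and to 3726 CPM in FAD IgG cortex and 3494 CPM in WT PBS cortex, and none was called in either region, where 0 had an unadjusted p under 0.05 in cortex and 2 in hippocampus. Markers of neurons of the striatum, which lies beneath cortex, summed to 365 ± 103.9 CPM in FAD CD38 cortex, 330 ± 138 CPM in FAD IgG cortex and 498 ± 114 CPM in WT PBS cortex (SD, n = 7, 7 and 9). All 6 had negative log2 fold changes of FAD IgG against WT PBS in cortex, 5 with an unadjusted p under 0.05, and none was called by edgeR; their part in the cortical values of the myelin genes was not tested.

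The mouse of conflicting labels, in no group, held 0.6228% of its counts in the 40 genes in cortex and 0.5131% in hippocampus.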
